A study of Mus musculus with 18 samples.

Results

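A set of 9 genes that an egg uses to meet a sperm and to answer it with calcium was followed through 18 libraries of mouse oocytes. They were found by their symbols in the deposited table of TPM values, which lists 28252 genes, and all 9 were present: Izumo1r, Cd9 and Astl at the egg surface, Itpr1, Cacna1h, Trpm7, Stim1 and Orai1 for the movement of calcium, and Camk2g for its downstream signal. TPM is a transcript level corrected for gene length and library size, and comparisons between genes below are made only in TPM.

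Oocytes came from F1 mice of the cross C57Bl/6j x CBA/J at 3 stages, grown either *in vivo* or *in vitro*, which makes 6 groups with 3 libraries each. For the *in vivo* group, oocytes of primordial and primary follicles were taken from ovaries of 14-day-old mice that had not been cultured, and metaphase II (MII) oocytes from adult females given gonadotropins. For the *in vitro* group, ovaries of 7-day-old mice were cultured for 7 days in α-MEM with serum, insulin-transferrin-selenium and FSH before oocytes were cut out at the same stages. The MII oocytes of that group came from follicles of cultured ovaries that were grown for 12 more days in alginate and then given hCG. Oocytes of primordial and primary follicles were chosen by morphology and cut from fixed, stained sections by laser capture microdissection (LCM), and caps of the same stage were pooled; an MII tube held 10 oocytes. LCM and MII libraries were made with different kits, so stage and library preparation cannot be told apart between them and no test compared them. The labels number the replicates but do not say that they are separate animals or cultures, so p-values measure the spread between these libraries, which may be technical.

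An ovulated oocyte waits at metaphase II until a sperm reaches it. The sperm protein IZUMO1 binds JUNO, the product of Izumo1r, on the egg membrane, and the tetraspanin CD9 is needed for the membranes to fuse. The sperm then brings a phospholipase C, and the inositol trisphosphate that it makes opens ITPR1, a calcium channel of the endoplasmic reticulum. Calcium rises and falls in waves, CaMKIIγ (from Camk2g) carries the signal that ends the meiotic arrest, and cortical granules release the protease ovastacin (from Astl), which cuts a zona pellucida protein so that no further sperm binds. Calcium enters from outside to refill the stores through channels that include the T-type channel of Cacna1h and the channel kinase TRPM7. STIM1 senses an empty store and opens ORAI1 in many cell types.

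RefSeq promoter windows (GRCm38.p6) were matched for 6 of the 9 genes: Izumo1r, Astl, Cd9, Stim1, Orai1 and Trpm7. RefSeq gives Astl a second start, whose window is not shown. The 250 bases before the start are shown for Izumo1r, Astl and Trpm7. These separate most clearly in CpG content, and the bases shown overlap no gene in GENCODE. The RefSeq start of Trpm7 lies in no GENCODE transcript. Each CG is in capitals, read on the gene's own strand. Izumo1r is cut to the 68 bases that lie outside the gene in GENCODE (chr9:14903950-14904017, minus strand); Astl is at chr2:127338389-127338638, plus strand, and Trpm7 at chr2:126876262-126876511, minus strand.
Izumo1r: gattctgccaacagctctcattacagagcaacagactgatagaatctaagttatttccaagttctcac
Astl: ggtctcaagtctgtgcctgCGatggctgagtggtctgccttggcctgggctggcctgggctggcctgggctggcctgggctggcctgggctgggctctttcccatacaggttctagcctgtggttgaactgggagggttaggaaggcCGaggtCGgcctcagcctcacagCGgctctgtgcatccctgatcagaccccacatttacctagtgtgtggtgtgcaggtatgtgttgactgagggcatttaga
Trpm7: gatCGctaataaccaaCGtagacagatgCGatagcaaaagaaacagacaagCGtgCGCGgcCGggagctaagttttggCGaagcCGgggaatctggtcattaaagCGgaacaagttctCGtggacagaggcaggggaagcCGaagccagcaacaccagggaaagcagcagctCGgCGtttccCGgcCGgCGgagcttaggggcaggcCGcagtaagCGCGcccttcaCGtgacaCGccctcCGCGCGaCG
The 68 bases of Izumo1r hold 0 CG, the Astl window 4 and the Trpm7 window 26. Over the whole 250 bases, the observed CpG count relative to that given by base composition was 0.128 for Izumo1r, 0.178 for Astl, 0.761 for Cd9, 0.809 for Stim1, 1.00 for Orai1 and 1.15 for Trpm7, against a median of 0.373 over 32851 windows. This is a property of the sequence and says nothing about a factor.

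LCM libraries (12) held 15149564 to 29205503 counts each and MII libraries (6) held 7334817 to 9978830, and 6048 to 13755 genes had counts in an LCM library against 14512 to 18239 in an MII library. A floor of 3 counts corresponds to 0.103 to 0.198 CPM (counts scaled to a common library total) in the LCM and 0.301 to 0.409 in the MII libraries, and covers counting error only. Of the 9 genes, 5 to 9 were above the floor in an LCM library and 8 or 9 in an MII library. Of 14 oocyte markers, 10 to 14 were above the floor in the LCM libraries, with a summed level of 76.9 to 1714 TPM, and 12 or 13 in the MII libraries, with 11102 to 21792 TPM. Of 12 granulosa markers, 4 to 11 were above the floor in the LCM libraries with sums of 43.1 to 2821 TPM, and 3 to 7 in the MII libraries with sums of 30.5 to 76.6 TPM. Most of the MII sum was Cyp19a1, the aromatase gene, at 17.5 to 64.7 TPM in all 6 MII libraries and at most 0.193 TPM in an LCM library. Fshr, the FSH receptor gene, reached 6.42 TPM at MII and was at 0 in all LCM libraries, while Foxl2 and Fst were at 0 in all MII libraries and Gja1 at 0.208 TPM or less. Markers of theca and stroma summed to 455 to 30451 TPM in the LCM libraries and to 0.312 to 7.15 TPM in the MII libraries. The 30451 TPM came from 1 primary *in vivo* library, with Acta2 at 18521 TPM, and the next highest LCM sum was 3524 TPM. The theca genes Cyp17a1 and Star reached only 0.402 and 0.389 TPM in an LCM library. Endothelial markers summed to at most 566 TPM in an LCM library and 103 TPM in an MII library. Pecam1 led them at MII with 56.8 ± 21.4 TPM (SD, n = 6), whereas Cdh5 and Emcn were at 0 in all MII libraries and Vwf at 0.124 TPM or less. Markers of blood and immune cells reached 1157 to 7503 TPM in the primary *in vivo* libraries and at most 175 TPM elsewhere. In the primary *in vivo* libraries nearly all of this was globin transcripts, though not the same ones in each. Replicate 1 held 7503 TPM of Hba-a1 and 0 of Hbb-bs, and replicate 3 held 1157 TPM of Hbb-bs and 0 of Hba-a1. Replicate 2 held 1189 TPM of Hba-a1 and 1178 TPM of Hbb-bs. Of the immune markers, Cd68 reached 0.327 TPM and Csf1r 13.9 TPM in the primary *in vivo* libraries, and Ptprc and Adgre1 were at 0 in all libraries. In the MII libraries Csf1r stood at 9.06 to 18.3 TPM and Cd68 at 0 to 12.4 TPM. In bulk libraries of this kind, fewer cells of a type and less RNA per cell cannot be told apart.

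**Figure D1:**
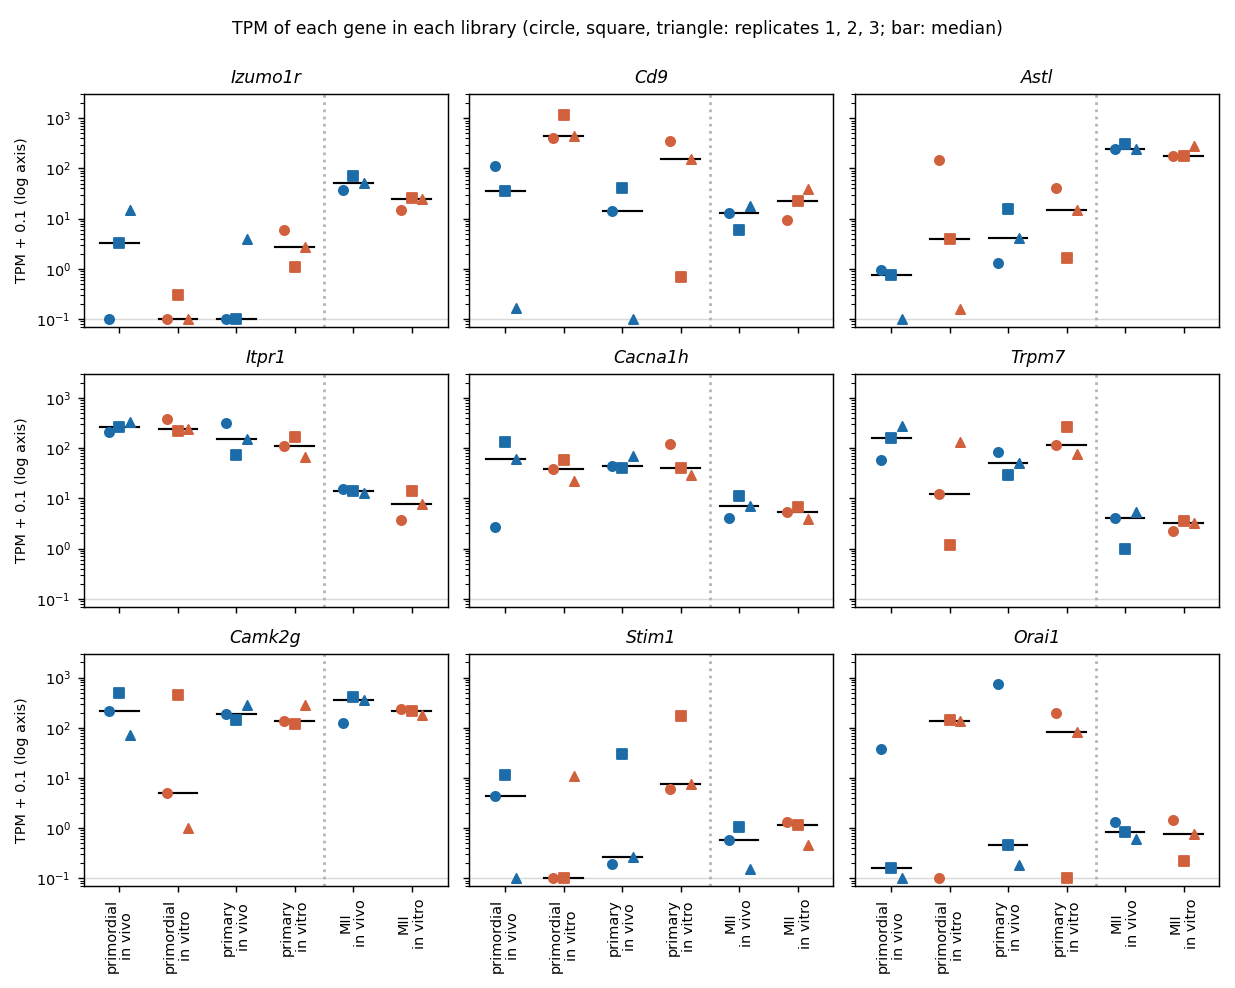
TPM of each of the 9 genes in every library (y axis, log scale, 0.1 added), by group; blue is in vivo, orange in vitro, symbols are the 3 libraries, bars are medians, and the dotted line separates LCM from MII libraries. Izumo1r and Astl lie higher and Itpr1 lower in every MII library than in every LCM library. On this axis Stim1, Orai1, Astl, Camk2g, Cd9, Trpm7 and Izumo1r are each spread over orders of magnitude within at least 1 LCM group.

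At the MII stage the egg carried transcripts of all 9 genes at very different levels. Astl and Camk2g were the highest, Izumo1r followed, Cd9, Itpr1, Cacna1h and Trpm7 were lower, and Stim1 and Orai1 were close to the limit of detection. Medians over the 6 MII libraries were 245 TPM for Astl, 224 TPM for Camk2g, 31.1 TPM for Izumo1r, 15.4 TPM for Cd9, 13.3 TPM for Itpr1, 5.87 TPM for Cacna1h, 3.30 TPM for Trpm7, 0.729 TPM for Stim1 and 0.699 TPM for Orai1. The comparison of *in vitro* with *in vivo* MII oocytes asks whether growth of the follicle in culture leaves the mature egg with other transcript levels. None of the 9 genes was called, where a call needs a Benjamini-Hochberg adjusted p under 0.05 and at least a 2-fold change in edgeR's quasi-likelihood test, against 0.35% of the 17144 genes tested. One of the 9, Izumo1r, had groups whose libraries did not overlap, against 16.2% of all genes. At an unadjusted p under 0.05 there was 1 of the 9, again Izumo1r, and 1743 of all genes. The median log2 fold change of the 9 was -0.28, against 0.04 over all genes.

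Izumo1r encodes JUNO, the receptor that sperm IZUMO1 binds (chromosome 9, 14885814 to 14903949, minus strand, GRCm38). In MII oocytes grown *in vivo* it stood at 36.6, 71.0 and 52.0 TPM, and in those grown *in vitro* at 15.0, 25.6 and 24.3 TPM. Every *in vitro* library was below every *in vivo* library, the counts behind the values being 302, 491 and 408 against 147, 209 and 184. The mean was 53.2 ± 17.2 TPM (SD, n = 3) *in vivo* and 21.6 ± 5.78 TPM (SD, n = 3) *in vitro*. The fitted log2 fold change was -1.25 (SE 0.39), with an unadjusted p of 0.00689 and an adjusted p of 0.303 in edgeR, so the difference did not pass. Over 15 alternative fits the log2 fold change of Izumo1r ran from -1.40 to -1.03 and the adjusted p from 0.0518, with DESeq2, to 1, with all 18 libraries in 1 model.

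Before the MII stage Izumo1r was patchy. Oocytes of primordial follicles held 0, 3.12 and 15.0 TPM *in vivo* and 0, 0.202 and 0 TPM *in vitro*. Oocytes of primary follicles held 0, 0 and 3.79 TPM *in vivo* and 5.93, 0.969 and 2.57 TPM *in vitro*. The gene was thus at 0 in 5 of the 12 LCM libraries, and the primary *in vitro* group was the only LCM group with reads in all 3 libraries. All 6 MII libraries lay above all 12 LCM libraries, although only just, 15.0 TPM being at the same time the highest LCM and the lowest MII value after rounding. By median the order was MII *in vivo*, MII *in vitro*, primordial *in vivo*, primary *in vitro*, then primordial *in vitro* and primary *in vivo*, both with a median of 0, and neighbours overlapped in 2 places: primordial *in vivo* with primary *in vitro*, and primordial *in vitro* with primary *in vivo*. In the family of folate receptor genes, Folr1 was at 0 in all MII libraries and Folr2 reached 2.49 TPM at most, and Izumo1r made 95.4% to 100% of the summed TPM of the family there.

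Astl encodes ovastacin, the cortical granule protease (chromosome 2, 127338639 to 127357651, plus strand). Its MII levels were 248, 310 and 243 TPM *in vivo* and 181, 177 and 275 TPM *in vitro*. The groups overlapped, with 1 of the *in vitro* libraries above 2 of the *in vivo* ones, and the log2 fold change was -0.28 (SE 0.33, adjusted p = 0.824 in edgeR). In LCM oocytes it was low in most libraries: 0.852, 0.664 and 0 TPM in primordial *in vivo*, 149, 3.90 and 0.0607 TPM in primordial *in vitro*, 1.24, 15.4 and 4.04 TPM in primary *in vivo* and 40.9, 1.55 and 15.0 TPM in primary *in vitro*. A single primordial *in vitro* library, with 149 TPM from 1796 counts, stood far above the other LCM libraries and still below every MII library. In the order of group medians, MII *in vitro* was above primary *in vitro* in every library, and all other neighbours overlapped.

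Cd9 is a tetraspanin of the egg membrane and of many other cells (chromosome 6, 125460266 to 125494791, minus strand). MII oocytes held 12.8, 5.74 and 18.1 TPM *in vivo* and 9.38, 22.8 and 39.3 TPM *in vitro*. The groups overlapped and the log2 fold change was 0.94 (SE 0.60, adjusted p = 0.569 in edgeR). Among the 4 tetraspanin genes Cd9, Cd81, Cd82 and Cd63, Cd9 made 77.6% to 100% of the summed TPM in MII oocytes. In LCM oocytes the share of Cd9 ran from 0% to 100%, and Cd81 was the other large component, at up to 1060 TPM in a library.

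Itpr1, the calcium release channel, had at least 273 counts in every library (chromosome 6, 108213096 to 108551109, plus strand). MII oocytes held 15.6, 13.98 and 12.6 TPM *in vivo* and 3.53, 13.9 and 7.57 TPM *in vitro*, and the highest *in vitro* value lay within the *in vivo* range. The log2 fold change was -0.81 (SE 0.40), with an adjusted p of 0.504 in edgeR. LCM oocytes held more of it: 205, 263 and 330 TPM in primordial *in vivo*, 378, 221 and 235 TPM in primordial *in vitro*, 322, 73.0 and 149 TPM in primary *in vivo* and 110, 165 and 66.5 TPM in primary *in vitro*. Every LCM library was above every MII library. The order of medians was primordial *in vivo*, primordial *in vitro*, primary *in vivo*, primary *in vitro*, MII *in vivo* and MII *in vitro*, and only the step from primary *in vitro* to MII *in vivo* left no overlap between neighbours. Itpr1 overlaps 2 small RNA genes on its own strand and 2 genes on the opposite strand; of these, Mir7661 reached 2554 counts in a library, against 273 to 44641 counts for Itpr1.

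The receptor family showed which member the transcripts came from. Itpr1 made 60.4% to 99.9% of the summed TPM of Itpr1, Itpr2 and Itpr3 in the LCM libraries, with a median of 82.7%, and 4.42% to 28.7% in the MII libraries, with a median of 8.96%. Itpr2, the paralog, held 38.1, 246 and 178 TPM in MII oocytes grown *in vivo* and 75.2, 38.4 and 58.7 TPM in those grown *in vitro*, which is above Itpr1 in every MII library. Within the LCM libraries the share of Itpr1 was 60.4%, 64.5% and 72.0% in primary *in vitro* and 80.0% or more in the other 9. Between LCM and MII libraries stage and preparation cannot be told apart, and a share depends on both genes.

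**Figure D2:**
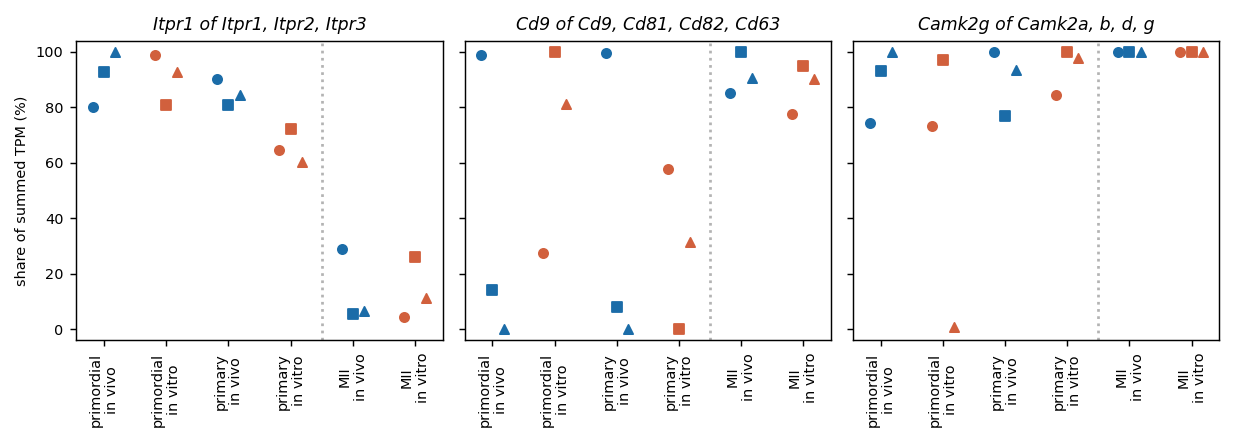
Share of the summed TPM of a gene family (y axis, percent) taken by Itpr1, Cd9 and Camk2g in each library, by group; blue is in vivo, orange in vitro, symbols are the 3 libraries. Itpr1 takes 60.4% or more in LCM libraries and 28.7% or less in MII libraries, while Camk2g takes 100% in all 6 MII libraries.

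Cacna1h, a T-type calcium channel gene (chromosome 17, 25374285 to 25433783, minus strand), held 4.01, 11.02 and 6.96 TPM in MII oocytes grown *in vivo* and 5.16, 6.57 and 3.77 TPM in those grown *in vitro*. The groups overlapped, with a log2 fold change of -0.40 (SE 0.47, adjusted p = 0.820 in edgeR). In LCM oocytes it ran from 22.4 to 133 TPM in 11 of 12 libraries and was at 2.59 TPM in the last, a primordial *in vivo* library. Cacna1h had reads in all 18 libraries, and 11 LCM libraries lay above every MII library. Of the related channel genes Cacna1g, Cacna1a and Cacna1c, none passed 0.532 TPM in an MII library, and Cacna1h made 91.2% to 100% of the summed TPM of these genes there.

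Trpm7, which carries a kinase domain on a cation channel (chromosome 2, 126791565 to 126876230, minus strand), also had reads in every library. Its MII levels were 4.00, 0.859 and 5.35 TPM *in vivo* and 2.13, 3.49 and 3.12 TPM *in vitro*, with the *in vitro* values inside the *in vivo* range and a log2 fold change of -0.21 (SE 0.61, adjusted p = 0.946 in edgeR). In LCM oocytes it held 58.8, 159 and 271 TPM in primordial *in vivo*, 12.3, 1.07 and 134 TPM in primordial *in vitro*, 83.1, 29.7 and 51.3 TPM in primary *in vivo* and 117, 258 and 76.6 TPM in primary *in vitro*. All neighbours in the order of its group medians overlapped, and so did the LCM and MII libraries, because of the primordial *in vitro* library at 1.07 TPM.

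The genes of the store-operated pair had few counts at MII. Stim1 (chromosome 7, 102267806 to 102437319, plus strand) held 0.488, 0.970 and 0.0570 TPM in MII oocytes grown *in vivo* and 1.26, 1.07 and 0.355 TPM in those grown *in vitro*, from 2 to 55 counts. Orai1 (chromosome 5, 123015074 to 123030456, plus strand) held 1.23, 0.731 and 0.515 TPM *in vivo* and 1.34, 0.124 and 0.668 TPM *in vitro*, from 1 to 13 counts. Neither a difference nor its absence could be shown with these counts and this spread between libraries: the log2 fold changes were 0.94 (SE 1.07, adjusted p = 0.820) for Stim1 and -0.03 (SE 1.69, adjusted p = 0.998) for Orai1 in edgeR. Of the pair's relatives, Stim2 ranged from 4.61 to 13.2 TPM and Orai3 from 1.05 to 9.08 TPM in MII oocytes, so that Stim1 made 0.429% to 18.5% of the 2 Stim genes and Orai1 1.65% to 53.8% of the 3 Orai genes.

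In LCM oocytes both switched between 0 and high values within a group. Stim1 was at 4.28, 11.5 and 0 TPM in primordial *in vivo*, 0, 0 and 11.1 TPM in primordial *in vitro*, 0.0971, 30.3 and 0.170 TPM in primary *in vivo* and 6.02, 171 and 7.45 TPM in primary *in vitro*. Orai1 was at 38.0, 0.0618 and 0 TPM in primordial *in vivo*, 0, 140 and 134 TPM in primordial *in vitro*, 752, 0.358 and 0.0851 TPM in primary *in vivo* and 194, 0 and 82.5 TPM in primary *in vitro*. Each gene was at 0 in 3 of 12 LCM libraries, and no neighbours in the order of group medians were apart for either. The 752 TPM of Orai1 rest on 11991 counts in 1 library, whereas the other 2 of that group hold 6 and 1 counts.

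Camk2g encodes CaMKIIγ, the calcium-dependent kinase of the egg (chromosome 14, 20734875 to 20794088, minus strand). MII oocytes held 123, 414 and 353 TPM *in vivo* and 235, 213 and 182 TPM *in vitro*. All *in vitro* values lay inside the *in vivo* range, and the log2 fold change was -0.36 (SE 0.41, adjusted p = 0.818 in edgeR). Of the 4 Camk2 genes, Camk2g alone made 100% of the TPM in each MII library. LCM oocytes held 218, 495 and 70.5 TPM in primordial *in vivo*, 4.93, 441 and 0.898 TPM in primordial *in vitro*, 184, 145 and 284 TPM in primary *in vivo* and 133, 117 and 286 TPM in primary *in vitro*. Apart from 2 primordial *in vitro* libraries, Camk2g stayed between 70.5 and 495 TPM in the other 16 libraries. No neighbours in its order of group medians were apart.

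**Figure D3:**
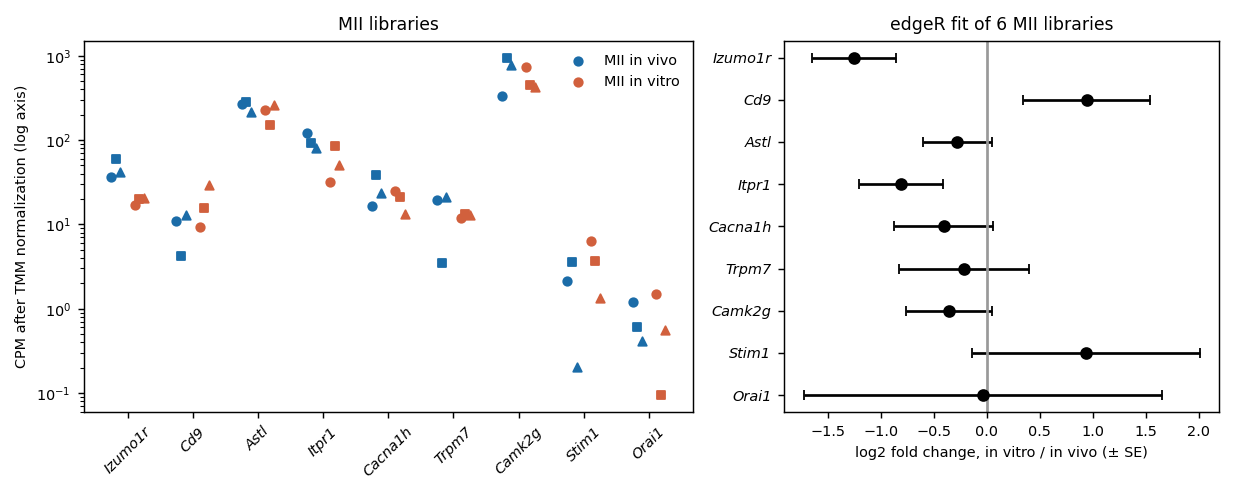
Left, CPM after TMM normalization (y axis, log scale) of the 9 genes in the 6 MII libraries, blue in vivo and orange in vitro, 1 symbol per library; right, log2 fold change of in vitro over in vivo with its SE from the edgeR fit. The Izumo1r groups do not overlap, at a log2 fold change of -1.25, and the intervals widen to an SE of 1.69 for Orai1, which has 1 to 13 counts.

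Across the kinds of library, Izumo1r and Astl were the 2 genes above all LCM libraries in every MII library, as were 16.1% of the 25701 genes with reads in the TPM table, and Itpr1 was the 1 gene below all of them, as were 1.37%. For Cd9, Cacna1h, Trpm7, Camk2g, Stim1 and Orai1 the kinds overlapped.

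In oocytes of primordial follicles, the comparison of *in vitro* with *in vivo* asks what culture of the ovary leaves at the resting stage. None of the 9 genes was called in edgeR, against 0.0326% of 15317 genes, and 0 of the 9 had an unadjusted p under 0.05, against 1799 of all genes. Cd9 was the 1 gene of the 9 whose groups did not overlap, against 6.59% of all genes. Cd9 held 111, 35.4 and 0.0664 TPM in the 3 *in vivo* libraries and 404, 1162 and 434 TPM in the 3 *in vitro* libraries. The lowest *in vitro* level was above the highest *in vivo* level, the means being 48.8 ± 56.7 TPM (SD, n = 3) and 667 ± 429 TPM (SD, n = 3). The log2 fold change was 3.93 (SE 2.52), with an adjusted p of 0.487 in edgeR, and it did not pass. Cd9 is also made by many somatic cells, and the 12 granulosa markers summed to 675, 911 and 43.1 TPM in the *in vivo* libraries and to 376, 671 and 2180 TPM in the *in vitro* libraries. The lowest Cd9 value and the lowest granulosa sum fell in the same *in vivo* library. The highest of each fell in different *in vitro* libraries. Of 10 tested granulosa markers, 8 had a higher value *in vitro*, with a median log2 fold change of 1.18, and none was called. The part of these cells in the Cd9 values was not tested.

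**Figure D4:**
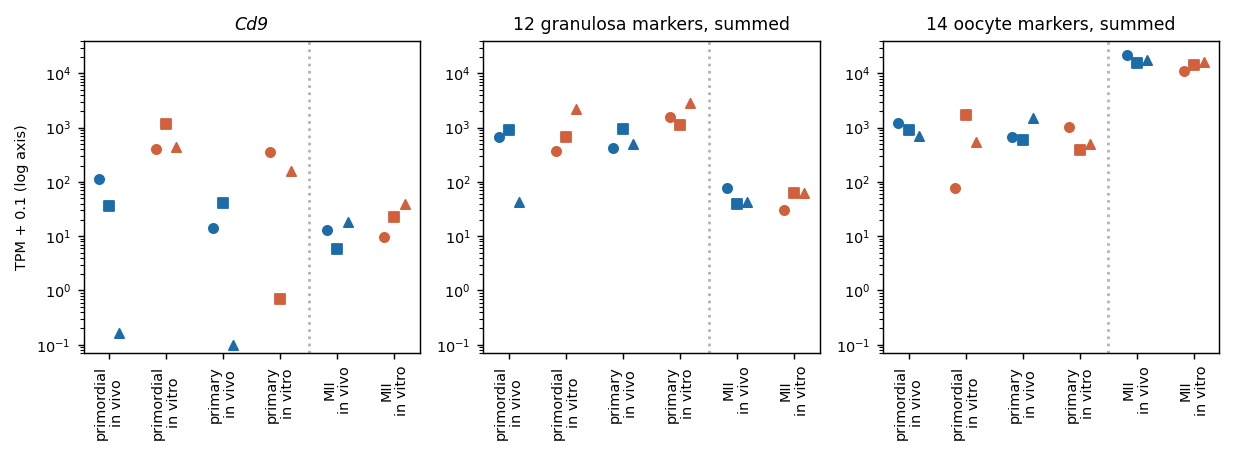
Cd9 (left), the sum of 12 granulosa markers (middle) and the sum of 14 oocyte markers (right) in each library, in TPM (y axis, log scale, 0.1 added), by group; blue is in vivo, orange in vitro. Cd9 stands at 404 to 1162 TPM in the primordial in vitro libraries and at 0.0664 to 111 TPM in the primordial in vivo libraries. The granulosa sums of these groups overlap, and 8 of 10 tested granulosa markers had a higher value in vitro. The part of granulosa cells in Cd9 was not tested.

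Astl was called in this comparison by DESeq2, the tool named in the study's methods, with a log2 fold change of 7.41 (adjusted p = 0.0114), where DESeq2 called 8.55% of the 8996 genes to which it gave an adjusted p. It was the 1 call among the 9 genes by DESeq2 in the 6 comparisons, although DESeq2 gave Stim1 no p-value in the LCM comparisons. With edgeR the log2 fold change of Astl was 6.90 (SE 4.00) and the adjusted p 0.461. The difference rests on the library at 149 TPM: without primordial *in vitro* replicate 1, the edgeR log2 fold change of Astl was 2.12, and the other *in vitro* libraries, at 3.90 and 0.0607 TPM, did not lie apart from the *in vivo* values. The same library had the lowest summed oocyte markers of all 18, at 76.9 TPM. It also had the highest summed endothelial markers, at 566 TPM, nearly all of it Tek, against at most 69.7 TPM in the other LCM libraries. In this library Pecam1, Cdh5, Vwf and Kdr were at 0 and Emcn at 0.157 TPM, so the endothelial sum rests on 1 gene. The part of either marker sum in its Astl level was not tested. Izumo1r had 4 counts in the 3 *in vitro* libraries together, and no fold is given for it. For the other genes the log2 fold changes ran from -1.82, for Trpm7, to 6.90, the median of the 9 was -0.31 against 0 over all genes, and edgeR's adjusted p values ran from 0.461 to 1.

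In oocytes of primary follicles the same comparison found nothing among the 9. No gene was called in edgeR among the 9, against 0% of 15317 genes, with 0 of the 9 and 1479 of all genes at an unadjusted p under 0.05. No gene of the 9 had groups apart, against 9.99% of all genes. The log2 fold changes ran from -2.25, for Orai1, to 2.73, for Cd9, with a median of 1.12 against 0.44 over all genes, and adjusted p values in edgeR from 0.798 to 1. Cd9 was at 14.4, 40.6 and 0 TPM *in vivo* and at 350, 0.582 and 157 TPM *in vitro*, so that 2 *in vitro* libraries were above all *in vivo* ones and the other was above only the library at 0. The summed blood and immune markers, nearly all globin transcripts, ran from 1157 to 7503 TPM in the *in vivo* libraries, against 0 to 174 TPM *in vitro*. Granulosa sums ran from 415 to 951 TPM *in vivo*, against 1144 to 2821 TPM *in vitro*. Both moved with these groups, and their part was not tested.

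The difference between the growth effects of the 2 stages (interaction) was called for 0 of the 9 genes in edgeR, against 0.104% of all genes. At an unadjusted p under 0.05 there were 0 of the 9 and 1765 of all genes, and the adjusted p values of the 9 ran from 0.594 to 1.

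Between primordial and primary oocytes, the comparison within a group asks what changes as the follicle starts to grow. *In vivo*, 0 of the 9 genes were called in edgeR, against 0.0522% of 15317 genes, with 0 of the 9 and 1713 of all genes at an unadjusted p under 0.05. Astl was the 1 gene with groups apart, against 6.39% of all genes: the 1.24, 15.4 and 4.04 TPM of primary oocytes were all above the 0.852, 0.664 and 0 TPM of primordial ones, with a log2 fold change of 3.83 (SE 3.46, adjusted p = 0.709 in edgeR). These levels come from 22 to 287 counts against 0 to 15. *In vitro*, 0 of the 9 were called, against 0% of all genes, with 0 of the 9 and 1673 of all genes at an unadjusted p under 0.05, while 3 of the 9 had groups apart, against 11.2% of all genes.

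The 3 genes apart *in vitro* were Itpr1, Cd9 and Izumo1r. Itpr1 stood at 378, 221 and 235 TPM in primordial and 110, 165 and 66.5 TPM in primary oocytes, with a log2 fold change of -1.51 (SE 1.33, adjusted p = 0.750 in edgeR). Cd9 stood at 404, 1162 and 434 TPM against 350, 0.582 and 157 TPM, with a log2 fold change of -2.44 (SE 2.36, adjusted p = 0.814 in edgeR). Izumo1r went the other way, with 0, 4 and 0 counts in primordial and 95, 17 and 48 counts in primary oocytes, all at low levels. *In vivo* the primordial and primary values of these 3 genes overlapped. The comparisons share the primordial or the primary libraries with those of the growth groups, and their values are not independent.

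The pathway around the 9 genes was read from 4 lists of other genes. None of their genes passed the call in edgeR in any of the 6 comparisons, against 0% to 0.35% of all genes. Only edgeR's calls are given for these lists. The study, which used DESeq2, reports Tpcn1 of the calcium list among its most significant genes in MII oocytes, as upregulated. At the MII stage, 16 of 18 egg surface genes were tested. Of these, 10 had a higher value *in vitro*, and their median log2 fold change was 0.13. Their highest levels were 335 ± 138 TPM (SD, n = 6) for Zp3, a zona pellucida glycoprotein, 204 ± 66.1 TPM for Slc39a10, a zinc importer, and 118 ± 27.1 TPM for Zp1, another zona glycoprotein. Of 34 further calcium genes, 26 were tested and 12 were higher *in vitro*, with a median log2 fold change of -0.09. Atp2a2, the calcium pump of the endoplasmic reticulum, stood at 119 ± 48.1 TPM (SD, n = 6) and Mcu, the mitochondrial calcium uniporter, at 117 ± 27.1 TPM. Of 14 genes that act after calcium, 9 were tested and 7 were higher *in vitro*, with a median of 0.34.

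Wee2, an oocyte kinase that inhibits CDK1, led the last list at 736 ± 297 TPM (SD, n = 6), followed by Ppp3r1, the regulatory subunit of calcineurin, at 294 ± 131 TPM and Fbxo43, the meiotic inhibitor of the anaphase-promoting complex, at 263 ± 107 TPM. Ppp3r1 was at 189, 174 and 212 TPM in MII oocytes grown *in vivo* and at 299, 507 and 384 TPM in those grown *in vitro*. The groups were apart, as for 16.2% of all genes, with a log2 fold change of 1.07 (SE 0.31) and an adjusted p of 0.240 in edgeR, so it did not pass. In all, 3 of the 9 tested genes of this list had groups apart in CPM after TMM normalization, each higher *in vitro*. Camk4, 1 of these, was at 0 in all *in vivo* libraries and at only 0.0576 to 0.373 TPM *in vitro*. Of the egg surface genes tested, 2 of 16 were apart, each higher *in vitro*, and of the calcium genes 0 of 26. The share over all genes was 16.2%. The fourth list holds 20 genes of the sperm side of the meeting, of which 13 were matched, and 5 were tested at MII. Spam1, a sperm hyaluronidase gene, gave 36.9, 12.1 and 8.13 TPM *in vivo* and 35.2, 31.9 and 25.3 TPM *in vitro*. Prm2, a protamine gene, gave 1.57 to 14.1 TPM and Dcst2 0.621 to 7.89 TPM, whereas Izumo1, whose product binds JUNO, was at 0 in 5 of 6 MII libraries and Plcz1, the sperm phospholipase, in all 6.

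**Figure D5:**
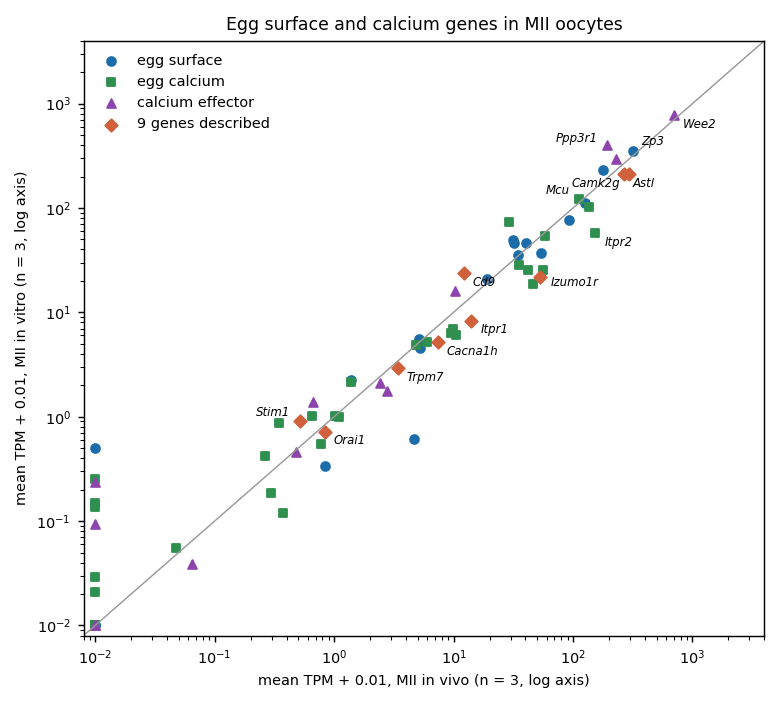
Mean TPM (0.01 added, both axes log scale, n = 3 libraries each) of genes of the egg surface, calcium and calcium effector lists and of the 9 genes (diamonds), in vivo on the x axis and in vitro on the y axis, with the line of equal level. Izumo1r (53.2 TPM in vivo, 21.6 TPM in vitro) and Itpr1 (14.05 and 8.34 TPM) lie below the line and Cd9 (12.2 and 23.8 TPM) and Stim1 (0.505 and 0.893 TPM) above it, and no gene of the 9 passed the test.

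The LCM comparisons gave no call in edgeR for these lists either. Of 33 tested calcium genes, 18 were higher *in vitro* in primordial and 16 in primary oocytes, with median log2 fold changes of 0.11 and 0. Of 17 tested egg surface genes, 12 were higher *in vitro* in primordial and 9 in primary oocytes, with medians of 1.33 and 0.25. Of 14 calcium effectors, 6 and 5 were higher, with medians of -0.23 and -1.34. Of 5 tested sperm genes, 2 had a higher value in each comparison. Of the marker lists, Ddx4, a germ cell RNA helicase of the oocyte list, was the 1 gene called in edgeR: it was at 34.8, 13.4 and 23.9 TPM in MII oocytes grown *in vivo* and at 217, 368 and 271 TPM in those grown *in vitro*, and the log2 fold change was 3.55 (SE 0.43, adjusted p = 0.00206 in edgeR).

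Genes with the most similar profile were named for 4 members as those with the smallest root mean square difference of the centred group means of log2(TPM + 1), over 6 groups. For Izumo1r these were Ccdc85c (0.159), Fbxo9 (0.218) and Rnpep (0.271). For Itpr1 they were Araf (0.302), Usp12 (0.327) and Usp34 (0.358), for Astl Gbx2 (0.367), Znrf2 (0.385) and Smoc2 (0.393), and for Cd9 Lsm4 (0.477), 1810026B05Rik (0.502) and Rnasek (0.571). All values are differences on the log2 scale. With a pseudocount of 0.1, 3 of these 12 genes were named again, and with the 18 libraries in place of the 6 group means, 1 of 12 was.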

How the data were processed

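Per the labels and the study's methods, the authors trimmed the reads with Trim Galore 0.4.1, aligned them with TopHat2 to mm10, and used featureCounts for the reads of each gene. They deposited the read counts without normalization, and TPM values for part of the genes. For 2332 genes with counts in all libraries, the deposited TPM values equalled counts over 1 length per gene, scaled to the library, within a relative deviation of 6.5e-08. Use of strand and of reads that map to several places is not given in the sources used here, so reads of overlapping genes cannot be separated: Cd9, Itpr1, Cacna1h, Trpm7, Stim1 and Orai1 overlap other genes, and Izumo1r, Astl and Camk2g none. Of 53715 gene identifiers, 53620 were found in GENCODE M21 (GRCm38), the source of gene coordinates.

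Samples were grouped by their labels. Counts were tested with edgeR 4.0.16 in R 4.3.3 (glmQLFit with robust = TRUE, glmQLFTest, TMM) over genes whose counts sum to 10 or more, in 1 model of the 12 LCM libraries and 1 of the 6 MII libraries, with Benjamini-Hochberg adjustment over all genes tested. SEs are the size of the log2 fold change over the square root of F. A call needed an adjusted p under 0.05 and at least 2-fold; positive values are higher *in vitro*, or higher in primary than in primordial oocytes. The scripts were tested on simulated data with known changes. The check to pass was the direction of change at a smaller spread than in these libraries. It is no measure of power here. An exact permutation test of 3 against 3 libraries cannot go below p = 0.1, so none is given. Alternatives were DESeq2 1.42.0, limma 3.58.1 on log2(TPM + 1) and log2(TPM + 0.1), other scaling and filters, other sets of libraries, a block for the replicate number, and each library left out. The genes and lists were chosen with earlier results of these data known. Named from the lists were genes called in a comparison and the 3 with the highest mean TPM in the MII libraries (1 of the calcium list is not reported here, nor plotted), and Itpr2, other paralogs, Fshr, Foxl2, Gja1, Fst, Izumo1 and Plcz1 after their values were seen. Nearest profiles were sought among genes with a mean TPM of at least 1.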

Additional observations from a re-analysis of the deposited data

How the results depend on the processing

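None of the 9 genes was called in any of the 6 comparisons with DESeq2's size factors, library size alone, filterByExpr, no filter, limma on log2 TPM with either pseudocount, no fold change threshold, only the 2 groups compared (4 comparisons), all 18 libraries or any library left out; DESeq2 called 1, Astl, in primordial oocytes. Stim1 had no p-value from DESeq2 in the LCM comparisons. Counts of called genes over the whole table moved by more than 1.5 times. With DESeq2 they were 769, 226, 540, 532, 423 and 365 for primordial growth, primary growth, interaction, primary against primordial *in vivo* and *in vitro*, and MII growth, against 5, 0, 16, 8, 0 and 60 in edgeR. With a library left out they ran from 0 to 13, 0 to 4, 0 to 20, 0 to 11, 0 to 2 and 11 to 378; at MII it was 378 without *in vivo* replicate 1, 19 without *in vivo* replicate 3, and 12, 14 and 11 without *in vitro* replicates 1, 2 and 3. Over the other alternatives the lowest count was 0 in each comparison. The cause was not tested. Scaling moved the median log2 fold change of all genes in the comparison of primary oocytes between 0.17 (DESeq2's size factors) and 0.72 (library size alone).

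Of 244 refits of the 14 log2 fold changes given with an SE for the 9 genes, 237 kept the direction. Trpm7 at MII turned to 0.088 with limma on log2(TPM + 0.1) and to 0.15 at most with a library left out (-0.68 to 0.15). Orai1 at MII ran from -1.14 to 0.50 with a library left out, turning with 3 of the 6 libraries left out. filterByExpr left out Orai1 at MII. Groups that did not overlap numbered 6 in TPM and in TMM-scaled CPM, and 7 in CPM, with Trpm7 in primary oocytes added.

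No pairing by replicate number was seen. Deviations of libraries with the same number correlated between -0.07 and 0.09 in the LCM fit and between -0.02 and 0.02 in the MII fit. For libraries with different numbers the ranges were -0.08 to 0.09 and -0.04 to 0.03. With the spread between these libraries, the check cannot exclude pairing. With the number as a replicate block, 1, 0, 0, 0, 0 and 85 genes were called in the 6 comparisons and 0 of the 9, and Trpm7 at MII was at 0.10. Stim1 and Orai1 rest on 1 to 55 counts at MII. The spread between libraries was a biological coefficient of variation of 2.02 in the LCM fit and 0.726 in the MII fit.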
